A study of Mus musculus with 4 samples.

Results

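The miRNAs described here are the mouse miRNAs numbered 1892 or higher. Their members were chosen by name alone, as probes for a mouse miRNA of such a number, with or without a letter or an arm (-3p, -5p), leaving out star strands. The rule took 162 of the 1030 mouse miRNA probes on the array. The samples were primary cortical neurons from E15 Swiss albino mouse embryos, untreated and harvested after 2, 4, 6 or 8 days of culture (Days 2 to 8). Per the study's methods, the RNA of several separate experiments was combined into 1 pool per day, and each pool was hybridised to 1 array, so that no value below has a spread between cultures, and the day and its array cannot be told apart.

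A miRNA is a short RNA cut from a hairpin precursor, either arm of which can give a mature strand. It guides an Argonaute protein to mRNAs that pair with its seed, the bases near its 5′ end, and so lowers the output of those mRNAs. miRNA numbers were given in the order of registration, so that high numbers mostly belong to miRNAs found late, by deep sequencing of small RNAs, many of them without an assigned function. In a bulk sample such as these cultures, fewer cells that hold a miRNA and fewer copies per cell cannot be told apart.

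The mature sequences below belong to the miRNAs that the comparisons turn on and whose array name has an exact match in RefSeq (GRCm38.p6). Of the 162 members, 84 had such a match, and of the 49 detected members 22 did. Capitals mark the seed, bases 2 to 8 from the 5′ end. The first 6 were higher on Day 8 than on Day 2.
miR-2137: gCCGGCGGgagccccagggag
miR-1894-3p: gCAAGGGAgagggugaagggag
miR-1899: aGCGAUGGccgaaucugcuucc
miR-3095-3p: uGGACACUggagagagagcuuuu
miR-1892: aUUUGGGGacgggagggaggau
miR-1895: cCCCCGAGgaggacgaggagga
The next 4 were lower on Day 8.
miR-3080-5p: uGAAGCGCcuguucuuggau
miR-1902: aGAGGUGCaguaggcaugacuu
miR-3069-3p: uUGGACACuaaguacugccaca
miR-3069-5p: uUGGCAGUcaagauauuguuuagc
The last gave one of the brightest signals.
miR-1983: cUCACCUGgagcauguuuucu

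In this annotation the miR-2137 sequence lies at chrX:72992113-72992133 on the plus strand, within Zfp185 and on its strand. The miR-1894-3p sequence lies at chr17:35917938-35917959, within Ppp1r10, and miR-3095-3p at chr4:58441023-58441045, within Lpar1, a receptor for lysophosphatidic acid. miR-1899, at chr9:8246796-8246817, overlaps no other gene of the annotation. miR-3080-5p lies within Tcf20 at chr15:82959266-82959285, and miR-1902 within Hipk3, a protein kinase, at chr2:104428871-104428892. Both arms of miR-3069 lie within Snhg10, a small nucleolar RNA host gene, and their hairpin overlaps the gene of Scarna13, a small Cajal body RNA (chr12:105031078-105031140 from the 3p to the 5p arm, minus strand). The probes cannot show from which of the overlapping RNAs a signal came.

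Detection was set by the threshold of the study's methods, a background-subtracted mean signal of 300. Of the 162 members, 49 (30.2%) reached it on at least 1 array, against 40.7% of all mouse miRNA probes. On all 4 arrays, 41 members (25.3%) did, against 31.6% of all mouse probes. The 868 other mouse probes were detected in 42.6% of cases. For comparison, the share of detected probes was 21.3% among 202 probes for viral miRNAs and 21.8% among 1113 probes whose names list human or rat but no mouse miRNAs. Whether the sequences of the latter also occur in the mouse was not checked. No signal of the 7 negative control probes exceeded 139.

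By day, 45, 47, 42 and 48 members were detected on Days 2, 4, 6 and 8. Most of the members were either detected throughout or not at all, with 113 never at 300 and 8 on some of the arrays only. The median signal of the detected members was 1037, 1144, 820 and 1329 on Days 2, 4, 6 and 8. Members that were never detected had medians of 46.4, 47.0, 50.2 and 54.3, and 79 of these 113 stayed at or below the highest negative control of the same array on every array. For 40 of the 49 detected members the signal was lowest on Day 6, the array with the lowest mean over all mouse probes (1275, against 1524 to 1653 on the other days). Raw signals therefore carry the brightness of the array, and changes are given after quantile normalization.

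**Figure D1:**
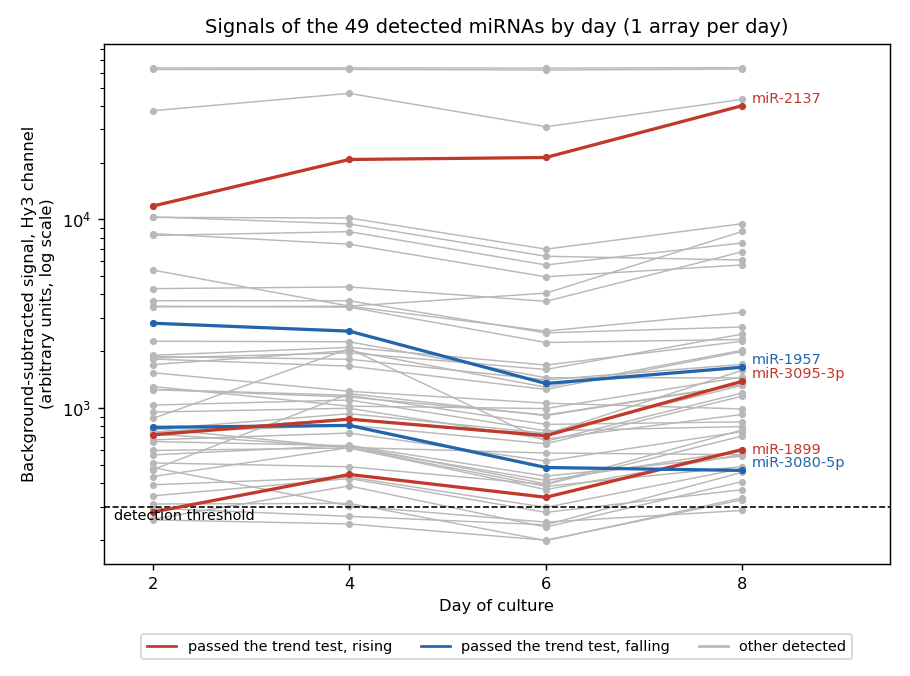
Background-subtracted signal in the Hy3 channel (arbitrary units, log scale) of each of the 49 detected members on the 4 days, 1 array per day, with the detection threshold of 300 as a dashed line. The 3 members that passed the trend test as rising are in red and the 2 falling in blue, and miR-2137 climbs from 11766 to 40086 while most grey lines dip on Day 6.

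The threshold passes close to several members. Just above it were miR-3060, with signals of 256, 243, 199 and 326 on Days 2, 4, 6 and 8, miR-3081 (310, 313, 199 and 334) and miR-1907 (258, 387, 234 and 408). Just below it were miR-3090 (highest signal 296), miR-1964-5p (294) and miR-1960 (292). A threshold of 200 gave 64 detected members and one of 500 gave 42. miR-1961, whose seed GAGGUAG is that of the let-7 family, stayed under the threshold with 219, 251, 158 and 207.

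Among the 41 members detected on all arrays, the mean signal was between 300 and 1000 for 16, between 1000 and 10000 for 21 and above 10000 for 4. The brightest were the probes for miR-1937a (62359, 62409, 61919 and 62653) and for miR-1937a together with miR-1937b (63524, 63561, 63405 and 63753). Both had at least 82.5% of their pixels saturated on every array, so that neither level nor change can be read from them. The related miR-1937c was not saturated and gave 3442, 3466, 2559 and 3216, an SLR of -0.24 ± 0.09 on Day 8. The SLR, or signal log ratio, is the log2 difference in normalized signal from Day 2, and its ± is the SD over the 4 spots of a probe on the 2 arrays, which is technical error only.

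miR-1983 gave 37677, 46573, 30992 and 43298, with an SLR of 0.04 ± 0.11 on Day 8 and replicate spots that overlapped between the days. Its gene on chromosome 13 overlaps that of an isoleucine tRNA, n-TItat14. miR-1939 gave 10250, 10173, 6957 and 9493 (SLR on Day 8, -0.11 ± 0.16), and miR-3084 gave 8221, 8610, 5737 and 7502 (-0.15 ± 0.16). For these 3 bright members the difference between Day 8 and Day 2 after quantile normalization was within the spot error or close to it. With arrays scaled to endogenous small RNA controls instead, the SLR on Day 8 was 0.67 for miR-1983, 0.34 for miR-1939 and 0.30 for miR-1937c. miR-3084 has a pair of genes on chromosome 19, one of which overlaps the small nucleolar RNA gene Snora19 in Eif3a, a translation initiation factor subunit.

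As a group, the detected members changed by small amounts over the first days. Their median SLRs on Days 4, 6 and 8 were -0.12, -0.02 and 0.01, against -0.01, -0.01 and -0.03 for all 419 detected mouse miRNAs. On these days 12, 21 and 26 of the 49 were higher than on Day 2, against 198, 201 and 194 of all 419. Most of the members were thus slightly lower on Day 4. On Day 4, 38 of the 49 lay within 0.3 of Day 2, on Day 6, 41 did, and on Day 8, 24 did. Of all 419 detected mouse miRNAs, 313, 285 and 207 did on these days, so that fewer lay near Day 2 on Day 8 among all miRNAs too. The 3 comparisons share the single Day 2 array, so that an error of that array would enter each of them.

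The study's limit for a changed miRNA, an SLR of 0.6, was passed by 2 members upward and 1 downward on Day 4, against 7.16% and 1.91% of all detected mouse miRNAs. On Day 6 it was again 2 upward and 1 downward, against 9.79% and 4.53%. On Day 8 it was 5 upward (10.2% of members, against 10.7%) and 9 downward (18.4%, against 11.2%). Of the 43 detected probes for viral miRNAs, 20.9% passed it upward and 2.33% downward on Day 8, with an SLR of up to 1.36 ± 0.09 for ebv-miR-BART19-3p, so that probes not made for a mouse miRNA passed the limit upward too. With 1 array per day these shares are a description of the arrays, and no day can be tested against Day 2. All 14 members past the limit on Day 8 had replicate spots that did not overlap between the days, as 36 of the 49 did (73.5%, against 66.1% of all detected mouse miRNAs). On Day 4 the spots of 29 members did not overlap with Day 2 (59.2%, against 41.5%), and on Day 6 those of 21 (42.9%, against 44.2%).

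The balance of higher and lower depends on how arrays are scaled. With the endogenous small RNA controls, the scaling that the study's methods describe, Day 8 had 12 members upward and 0 downward, and the median of all detected mouse miRNAs moved to 0.22. Cyclic loess gave 7 and 5, and spike-in controls gave 6 and 6. Scaling to the median of all probes, most of them undetected, gave 34 and 0 and moved the median of all detected mouse miRNAs to 0.81. Each statement on the change of a single member, above or below, therefore stands relative to the other miRNAs of the array.

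**Figure D2:**
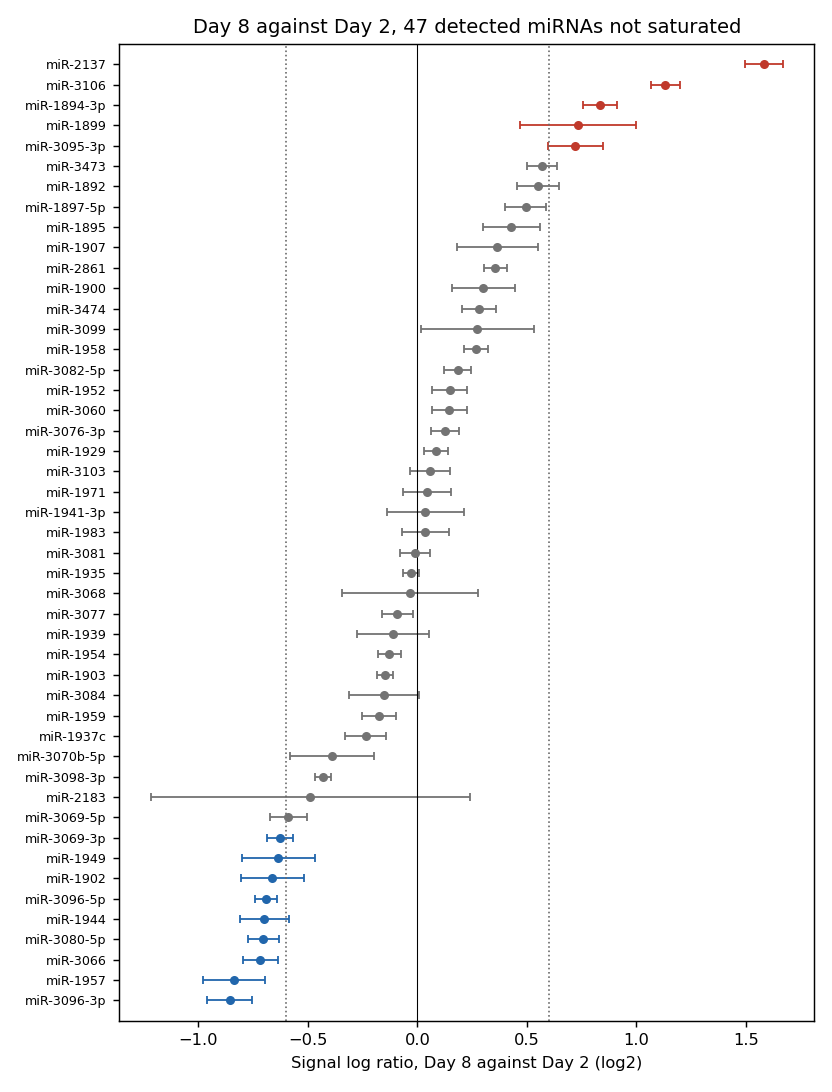
SLR on Day 8 against Day 2 (log2) of the 47 detected members that were not saturated, ordered by size, with bars for the technical SD over spots and dotted lines at 0.6 and -0.6. The 5 members above the upper line are in red, from 0.72 for miR-3095-3p to 1.58 for miR-2137, and the 9 below the lower line in blue, from -0.63 to -0.86. The blue ones turn positive when arrays are scaled to the median of all probes.

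miR-2137 had the largest difference among the members. Its signal was 11766 on Day 2, 20780 on Day 4, 21292 on Day 6 and 40086 on Day 8, the lowest spot of Day 8 (38305) lying far above the highest of Day 2 (12441). No pixel of its spots was saturated. The SLR was 0.59 ± 0.07, 1.24 ± 0.07 and 1.58 ± 0.09 on Days 4, 6 and 8, and that of Day 8 was positive under all 11 alternatives of processing.

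In a linear trend over the day, fitted with limma across the 419 detected mouse miRNAs, miR-2137 rose by 0.27 per day (SE 0.02, Benjamini-Hochberg adjusted p = 0.00663). The 4 arrays leave 2 residual degrees of freedom, so that these p-values measure how closely 4 pools follow a line. The call was made in 18 of 19 settings and lost without Day 8 (slope 0.31, adjusted p = 0.12), with adjusted p-values from 5.7e-08 to 0.12 over the settings. The lowest came without Day 2, where the members called all had the same SE of 0.04, as they did (0.08) with scaling to the median of all probes. In such settings the p-values rest on a residual pooled over miRNAs, and do not measure how closely each miRNA follows a line. Of all detected mouse miRNAs, 3.58% passed as rising and 9.55% as falling, against 3 and 2 of the 49 members. Among the members the trend gave 11 rising and 6 falling without Day 2, 1 and 0 without Day 4 or Day 6, and 0 and 0 without Day 8. At an unadjusted p under 0.05 there were 19 of the 49 members and 157 of all 419.

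miR-1899 rose with the day as well, with a slope of 0.12 per day (SE 0.02, limma, adjusted p = 0.0264). Its signal was 281, 445, 337 and 603, so that it was under the threshold on Day 2 and was at least 1.53-fold higher on Day 8, measured against the dimmest probe with every spot at 300 or more. The fitted SLR of 0.73 ± 0.26 on Day 8 carries the spread of its Day 2 spots, from 184 to 334.

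miR-3095-3p, the third to rise, gave 722, 874, 714 and 1388 (SLR 0.72 ± 0.13 on Day 8, slope 0.12 per day, SE 0.02, limma, adjusted p = 0.0434). Its other arm, miR-3095-5p, stayed between -16.0 and 1.02. The calls for miR-1899 and miR-3095-3p were weaker than that for miR-2137, being made in 10 of 18 and 10 of 19 settings. Over these the adjusted p-values of limma ran from 0.0195 to 0.934 and from 0.00119 to 0.835, the 0.00119 coming from the fit without Day 2.

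miR-3106 and miR-1894-3p were also past the limit on Day 8 without passing the trend test. For miR-3106 the difference was in place by Day 4, with signals of 471, 1194, 912 and 1329 and SLRs of 0.97 ± 0.08, 1.10 ± 0.07 and 1.13 ± 0.07 (trend adjusted p = 0.0947, limma). Its values on Days 4, 6 and 8 lay close to each other and apart from Day 2. miR-1894-3p was the opposite, near Day 2 until Day 6 and higher on Day 8, with 745, 875, 725 and 1588 and SLRs of 0.06 ± 0.08, 0.28 ± 0.11 and 0.84 ± 0.08 (adjusted p = 0.0552, limma). Its 5p arm gave 117 to 122 throughout.

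**Figure D3:**
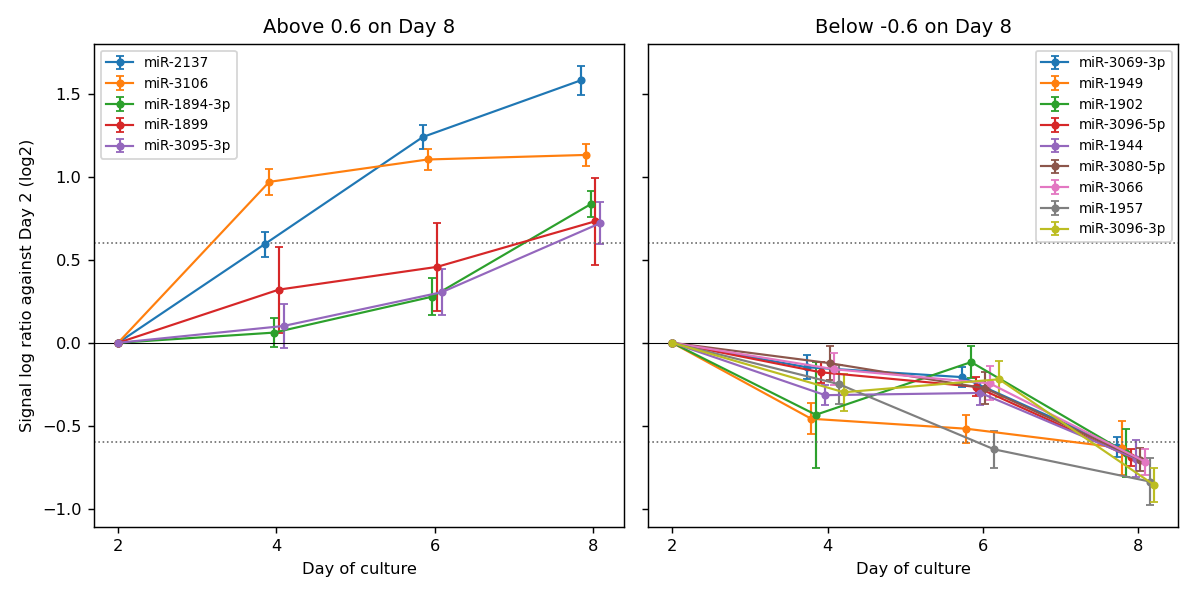
SLR against Day 2 (log2) over the days of culture for the 5 members above 0.6 on Day 8 (left) and the 9 below -0.6 (right). Bars are the technical SD over spots, points are set slightly apart along the day axis for reading, and dotted lines mark 0.6 and -0.6. miR-3106 reaches 0.97 by Day 4 and stays near there, miR-2137 climbs throughout, and most of the lower members move mainly between Day 6 and Day 8 after quantile normalization. This timing rests on the scaling. With spike-in controls 24 detected members were already below -0.6 on Day 6, and without normalization 28 were. The lower members turn positive when arrays are scaled to the median of all probes.

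Several other members were higher on Day 8 but within the limit. miR-3473 had the most uneven course, with 5388, 3470, 4065 and 8633, hence an SLR of -0.80 ± 0.06 on Day 4, -0.05 ± 0.06 on Day 6 and 0.57 ± 0.07 on Day 8. It was the only member past the limit downward on Day 4. miR-1897-5p, from the Sox2ot locus that surrounds the neural stem cell factor Sox2, gave 4297, 4385, 3679 and 6741 (SLR on Day 8, 0.49 ± 0.09), and its 3p arm was not detected (-0.77 to 31.3).

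miR-1892, within the sphingolipid synthesis gene Sptssa, gave 771, 934, 736 and 1321 (0.55 ± 0.10 on Day 8). miR-1895, on the strand opposite Cxxc4, a Wnt pathway inhibitor, gave 740, 812, 647 and 1156 (0.43 ± 0.13). The spots of both did not overlap between Day 2 and Day 8.

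Besides miR-1899, 3 dim members were under the threshold on Day 2 and above it on Day 8, miR-1907, miR-2861 and miR-3060. miR-2861, reported in mouse osteoblasts to repress the histone deacetylase Hdac5, gave 295, 267, 241 and 457, at least 1.24-fold higher on Day 8. miR-1907, already above the threshold on Day 4 and under it again on Day 6, was at least 1.13-fold higher on Day 8. For miR-3060 no fold can be given. Both bounds are small, and neither miR-2861 nor miR-1907 passed the trend test (limma, adjusted p = 0.241 and 0.188).

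Among the lower members, miR-1957 and miR-3080-5p passed the trend test. miR-1957 gave 2817, 2557, 1350 and 1646, with SLRs of -0.25 ± 0.12, -0.64 ± 0.11 and -0.84 ± 0.14, and fell by 0.15 per day (SE 0.02, limma, adjusted p = 0.0149). It was the only member past the limit downward on Day 6. miR-3080-5p gave 791, 809, 484 and 467 and fell by 0.11 per day (SE 0.02, limma, adjusted p = 0.0486), with an SLR of -0.70 ± 0.07 on Day 8. Its 3p arm was not detected, at -11.5 to 34.3. The call for miR-1957 was made in 12 of 19 settings and that for miR-3080-5p in 7 of 19, and neither with the endogenous controls (limma, adjusted p = 0.167 for both). The adjusted p-values of limma ran from 0.00211 to 0.954 for miR-1957 and from 0.00233 to 0.998 for miR-3080-5p over the settings. The lowest for each came from the fit without Day 2, with its pooled residual.

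Both arms of miR-3096 were lower on Day 8. miR-3096-3p gave 10316, 9462, 6377 and 6091 (SLR on Day 8, -0.86 ± 0.10), and miR-3096-5p gave 3468, 3427, 2226 and 2310 (-0.69 ± 0.05). On Days 4 and 6 the 2 arms lay between -0.18 and -0.30. Neither passed the trend test (limma, adjusted p = 0.0847 and 0.0521).

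miR-3069 likewise had both arms detected and lower. miR-3069-3p gave 3707, 3703, 2505 and 2690 (SLR on Day 8, -0.63 ± 0.06), and miR-3069-5p gave 1257, 1169, 820 and 845 (-0.59 ± 0.08). The arms of both hairpins were thus lower together. Apart from these 2 numbers and miR-1937, no number had more than 1 detected probe, although 29 numbers had more than 1 probe on the array.

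The other members past the limit downward on Day 8 were miR-3066, miR-1944, miR-1902 and miR-1949. miR-3066, within Nol10, gave 2261, 2246, 1449 and 1445 (SLR -0.72 ± 0.08), and the brighter miR-1944 gave 8410, 7390, 4966 and 5737 (-0.70 ± 0.11). miR-1902 gave 1540, 1227, 1062 and 989 (-0.66 ± 0.14), with a Day 4 value that rests in part on 1 spot at 1565 (SLR of -0.43 with it and -0.55 without it). miR-1949 was lower from Day 4 on, with 781, 615, 385 and 490 and SLRs of -0.46 ± 0.09, -0.52 ± 0.08 and -0.63 ± 0.16. The 9 lower members had negative SLRs on Day 8 under 10 of the 11 alternatives and turned positive, at 0.12 to 0.54, with scaling to the median of all probes, where the median of all detected mouse miRNAs lay at 0.81.

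Some markers of blood-borne cells were lower on the later arrays as well. In the list of 4 markers of microglia and leukocytes, the 1 detected, miR-142-3p, gave 471, 342, 132 and 82.9, and the summed signal of the 4 was 760, 658, 380 and 404. miR-150, of the same list, stayed under the threshold at 238, 229, 177 and 285 (SLR on Day 8, 0.08). Of the 3 erythroid and endothelial miRNAs, the erythroid miR-451 was detected with 632, 400, 147 and 106, and the sum was 900, 729, 326 and 258. The undetected endothelial miR-126-3p gave 63.8, 135, 99.4 and 116 (SLR on Day 8, 0.22). miR-223 was at or near 0 on all arrays, as were miR-143, miR-145 and miR-199a-3p of the 4 astrocyte and mesenchymal markers. The remaining marker of that list, miR-21, was detected on 2 arrays, with 372, 432, 251 and 288 (SLR on Day 8, -0.34). The 2 oligodendrocyte markers were detected, miR-219-5p with 460, 454, 264 and 349 (-0.38) and miR-338-3p with 957, 1515, 801 and 1234 (0.21). All 4 neuronal miRNAs were detected, miR-124 and miR-9 at saturation, and miR-138 with 4267, 8529, 7298 and 10791 (SLR on Day 8, 1.24). The part of any of these cell types in the changes of the members was not tested.

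Some apparent changes rested on single spots, as found after the values were seen. miR-1958 reached an SLR of 0.62 ± 1.10 on Day 4 through 1 spot at 5145, the other 3 lying between 951 and 1090, and without it the SLR was 0.07. It was 1 of the 2 members above the limit on Day 4, the other being miR-3106. miR-2183 gave 484, 304, 249 and 287 and appeared at least 1.34-fold lower on Day 8, but 1 Day 2 spot at 1042 stood against 267 to 329 for the others, and without it the SLR was -0.13. miR-3068 had 1 dim spot on Day 8, and its SLR was -0.03 with it and 0.11 without.

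Of 11 hairpins with a probe for each arm and at least 1 of them detected, 9 had the signal of 1 arm only above the threshold. As only 30.2% of all members were detected, an undetected arm is common, and no preference for an arm is read from this count. These were miR-1894, miR-1897, miR-3080 and miR-3095, given above, and miR-1941, miR-3070b, miR-3076, miR-3082 and miR-3098. miR-1941-3p gave 678, 738, 524 and 751 and its 5p arm 59.6 to 82.4. miR-3082-5p, within Stub1, a ubiquitin ligase gene, gave 1700, 2018, 1290 and 2025, and its 3p arm at most 99.97. For these the detected arm was nearly level, with SLRs on Day 8 of 0.04 ± 0.18 and 0.18 ± 0.06.

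miR-3098-3p was lower on Day 8, with 1037, 1104, 758 and 798 and an SLR of -0.43 ± 0.04, and its 5p arm reached 196. miR-3076-3p, within the transketolase gene Tkt, was on the threshold, with SLRs of -0.07 ± 0.08, -0.02 ± 0.11 and 0.13 ± 0.06, and its 5p arm gave 50.2 to 76.9. miR-3070b-5p, with 730, 619, 578 and 566 (SLR on Day 8, -0.39 ± 0.19), was the 1 detected probe of 5 whose genes lie in the imprinted region between Dlk1 and Dio3. Its 3p arm and miR-3070a stayed under 100, and miR-3072 under 215.

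The remaining 11 detected members stayed well within the limit on every day, with SLRs on Day 8 from -0.18 for miR-1959 to 0.30 for miR-1900. miR-1900, on the strand opposite Icam5, a neuronal adhesion molecule of dendrites, gave 1842, 1962, 1602 and 2467 (0.30 ± 0.14 on Day 8). miR-1971 had the widest departure among these, at -0.43 ± 0.12 on Day 4, and was back at 0.04 ± 0.11 on Day 8. The others were miR-1903, miR-1929, miR-1935, miR-1952, miR-1954, miR-3077, miR-3103 and miR-3474, between -0.25 and 0.21 on Days 4 and 6 apart from miR-1929 on Day 6 (-0.28 ± 0.15).

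By position, 122 members had a gene in the annotation, and 96 of these lie within a protein-coding gene on either strand, of which 23 were detected, with a median SLR of 0.08 on Day 8. Of the 26 outside protein-coding genes, 9 were detected, with a median of 0.04. Genes of 4 members lie opposite or within that of another miRNA, namely miR-3065 opposite Mir338, miR-3071 opposite Mir136, miR-3074-5p opposite Mir24-1 and Mir24-2, and miR-3083 opposite Gm51291, and none of these members was detected. Of the partners, miR-338-3p (957 to 1234 on Days 2 and 8), miR-136 (5681 to 14176) and miR-24 (2665 to 2126) were detected on all arrays, and miR-338-5p on none (290 to 250). No probe was matched to Gm51291. The 4 members that overlap the gene of another kind of small RNA, miR-1983, miR-3084 and the arms of miR-3069, were all detected. Of all 122 members with a gene, 32 were detected, and the arms of miR-3069 come from 1 hairpin. miR-1912, within the serotonin receptor gene Htr2c, was not detected, while miR-3099, described in the embryonic mouse brain and lying in Usp29, gave 434, 617, 413 and 596 (SLR on Day 8, 0.27 ± 0.26).

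Base composition varied widely among the detected members with a sequence, from 37.5% G and C in miR-3069-5p to 85.7% in miR-2137 and 94.7% in miR-2861. The 10 members at 55% or more, a division chosen after the values were seen, all had positive SLRs on Day 8, from 0.13 to 1.58 with a median of 0.39. Among these, miR-2861 reached the detection threshold on Day 8 only, so that the filter itself favoured its positive SLR, and miR-1899 was under it on Day 2. Of the 12 below 55%, 5 were positive, with a median of -0.14 and a range from -0.70 to 0.72. Over the 22 members, Pearson's r between G and C content and the SLR on Day 8 was 0.60 (Spearman's rho 0.62), with 0.53 when the 2 members farthest from the median content were left out and 0.47 without miR-2137. It was 0.08 for Day 4 and 0.56 for Day 6. A run of 3 or more G was held by 5 of these 22 (22.7%) and by 30 of 62 undetected members with a sequence (48.4%). Among the other mouse miRNAs with a sequence it was held by 33.7% of the 83 detected and 24.7% of all 190.

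Among the other detected mouse miRNAs the same relation was near 0. Over 83 of them with a sequence, r was -0.00 and rho -0.05 for Day 8, and 13 of the 27 at 55% or more had a positive SLR. Across the alternatives of processing, r for the members was between 0.53 and 0.65 and that for the other miRNAs between -0.08 and 0.01. These are relations across miRNAs that share the same 4 arrays, which are not independent replicates, and 27 detected members had no sequence to enter them. The difference between the groups was not tested.

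**Figure D4:**
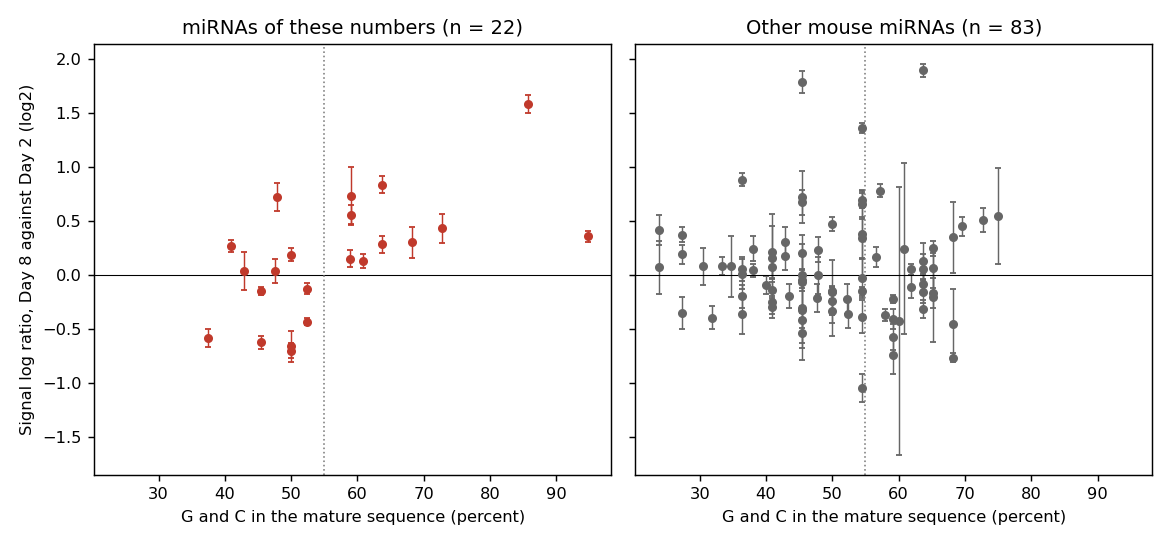
SLR on Day 8 against Day 2 (log2) by percent of G and C in the mature sequence, for the 22 detected members with a sequence (left) and 83 other detected mouse miRNAs (right), with bars for the technical SD over spots. On the left the 10 points at or beyond the dotted line at 55% all lie above 0, and on the right 13 of 27 do. Among the 10, miR-2861 passed the detection filter through Day 8 only.

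Among the detected members with a sequence, 1 pair shared a long run of bases at the 5′ end and went opposite ways. miR-3069-3p and miR-3095-3p hold the same 8 bases, UGGACACU, starting at base 2 of the former and base 1 of the latter, and their SLRs on Day 8 were -0.63 and 0.72. miR-2861 has its seed GGGCCUG in common with miR-3091-3p, which was not detected (81.8 to 134), and miR-1983 its seed with miR-412-3p, also not detected. Apart from the let-7 seed of miR-1961, given above, no other seed was found to be shared between a member and another mouse miRNA of the array. The search covered only those with an exact match in RefSeq.

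Of 47 probes of these numbers that the rule left out, mainly star strands, 9 were detected. Their median SLR on Day 8 was 0.17, and 1 was past the limit, miR-3084* at 3491, 3367, 2054 and 2238 (SLR -0.73 ± 0.15), while miR-3084 itself stood at -0.15. miR-3068* gave 21151, 22157, 14608 and 17837, and the member miR-3068 of the same hairpin 343, 423, 280 and 369. Signals of different probes do not measure relative amounts. The levels given here for the strands or arms of a hairpin therefore state detection, and not which strand was more abundant.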

How the data were processed

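Per the labels and file headers, Hy3-labelled total RNA was hybridised to 4 LNA arrays (miRBase 16.0), scanned on an InnoScan 700 and quantified with Mapix 4.5.0. The deposited scanner files give foreground and background intensity at 532 nm, and at 635 nm, where no dye was used, for 12312 spots per array, not normalized. They also give the percent of saturated pixels of a spot, as the authors' scanner software wrote it. The deposited value table holds linear intensity, equal to the background-subtracted median foreground averaged over spots (largest difference 0), neither centred nor normalized.

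The mean foreground was corrected with normexp (offset 50, all spots) in limma 3.58.1 under R 4.3.3, quantile-normalized over miRNA spots and averaged over the 4 spots of a probe. The study's methods scaled by endogenous controls instead, and this was run as an alternative with 12 of 21 named control probes, as were spike-in controls (33 of 61), median scaling, cyclic loess, no normalization, other background corrections, filters, the median foreground, the median of spots, the value table and leaving out each day. Median scaling over the detected probes and the values without single spots were added after seeing the data. A trend over the day was fitted with lmFit and eBayes over 419 mouse miRNAs (Benjamini-Hochberg at 0.05, two-sided), and checked on simulated data. Where 1 of the 2 arrays compared was under 300, a bound was computed, set by the lowest normalized signal of probes with every spot at 300 or more.

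Members, lists and tests were chosen with earlier results of these data known. Values are given for the brightest, the most changed, the bounded and the saturated members, those that passed the trend test, those next to the threshold, and the arms and letters of a number with a detected probe. Further members are named for their annotation, sequence or spots and were chosen after their values were seen. Sequences and gene positions are from RefSeq GRCm38.p6, matched by exact name. The number of arrays limits the precision.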

Additional observations from a re-analysis of the deposited data

Results flagged for a closer look

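A signal appeared in the second scanner channel, where no dye was used, for 5 members, at more than 3 times the highest negative control of the same array. The mean intensity in that channel was 326 for the probe of miR-1937a and miR-1937b and 255 for miR-1937a, both on Day 2, where the highest negative control was at 6.24. It was 80.8 for miR-1983 and 67.9 for miR-2137 on Day 8 (highest negative control 6.42). miR-1958 reached 27.2 on Day 4 (6.31), and on that array 1 of its spots was far brighter than the others in the Hy3 channel as well. For miR-2137 the intensity there was 15.4, 35.9, 41.5 and 67.9 on Days 2, 4, 6 and 8, in the order of its Hy3 signals. These values entered no comparison.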

How the results depend on the processing

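No paired analysis was possible because each day has 1 array. The 49 detected members became 42 to 64 with other thresholds and 41 with all 4 arrays. With an SLR limit of 1, members past it numbered 0 upward and 0 downward on Day 4, 0 downward on Day 6, and 2 upward and 0 downward on Day 8. The other counts are for the limit of 0.6, beside 2 upward and 1 downward on Days 4 and 6 and 5 and 9 on Day 8.

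Scaling moved many of the counts. Endogenous controls gave 4 upward and 0 downward on Days 4 and 6 and 12 and 0 on Day 8, with median SLRs of the members of 0.16, 0.22 and 0.32, and 10 rising and 0 falling in the trend. Their shift in the median of all detected mouse miRNAs was 0.21, 0.20 and 0.22. Scaling to the median of all probes gave 34, 21 and 34 upward and 0 downward on Days 4, 6 and 8, medians of 0.71, 0.56 and 0.91, and 7 rising and 0 falling, with shifts of 0.76, 0.54 and 0.81. Under it the SLR on Day 8 turned positive for the members past the limit downward, miR-1902 (0.30), miR-1944 (0.48), miR-1949 (0.18), miR-1957 (0.23), miR-3066 (0.33), miR-3069-3p (0.54), miR-3080-5p (0.12), miR-3096-3p (0.28) and miR-3096-5p (0.42). Members with smaller negative values turned as well, such as miR-1937c (0.89) and miR-1939 (0.93). The median over the detected probes gave 2 downward on Day 4, 0 on Day 6 and 5 rising. Spike-in controls gave 0 upward and 11 downward on Day 4 and 1 and 24 on Day 6, medians of -0.41 and -0.60, and 1 rising and 0 falling, with shifts of -0.36, -0.62 and -0.10. Without normalization there were 2 downward on Day 4, 1 upward and 28 downward on Day 6, medians of -0.63 and -0.15 on Days 6 and 8, and 1 rising and 0 falling, with a shift of -0.65 on Day 6. Cyclic loess gave 0 downward on Day 6, 5 downward on Day 8, 7 rising and 5 falling. The cause of these shifts was not tested.

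Plain background subtraction and the value table each gave 2 downward on Day 4 and 1 falling, with 2 and 3 downward on Day 6. No background correction gave 2 downward on Day 4. The median foreground gave 1 upward on Day 4 and 1 falling, and the median of spots 1 upward on Day 4, where miR-1958 rests on 1 spot. With no filter on dim probes 4 were upward on Day 6 and 1 was falling. Without Day 2 the trend gave 11 rising and 6 falling, without Day 4 or Day 6 each 1 and 0, and without Day 8 0 and 0. The counts without Day 2 rest on a residual pooled over miRNAs. Of the other values, mainly SLRs of single members on Day 8 under 1 alternative each, 149 moved by more than the spot error and 211 stayed the same. A further 9 are those of the downward members that turned positive with scaling to the median of all probes. Signs changed for some other members too. miR-1937c went from -0.24 to 0.30 with endogenous controls, and miR-1907 from 0.37 to -0.11 without normalization.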
